A study of Mus musculus with 6 samples.

Results

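Osteoblast nuclei of the mouse fracture callus were selected by their UMI counts (unique molecular identifiers, 1 per captured RNA molecule) in single-nucleus RNA sequencing of injured tibial periosteum. A barcode first had to show 200 to 5000 detected genes, with less than 2% of its UMIs from mitochondrial genes and less than 1.5% from Rps and Rpl genes. A nucleus was then taken as osteoblast with at least 2 UMIs of Runx2, at least 2 UMIs in sum of Sp7, Ibsp, Alpl, Ifitm5 and Bglap, under 5 UMIs in sum of the cartilage genes Hapln1, Col2a1, Col9a1, Col9a3 and Acan, and none of Ptprc or Pecam1. This rule took 201 of the 6247 post-fracture nuclei within the limits, out of 8073 such nuclei and 13551 barcodes in all. The levels of these 13 genes in the selected nuclei follow from the rule and are given as a description.

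Wild-type mice labelled C57BL6 were used; per the study's methods they were adults, males and females together, and the fracture was open and not stabilized. Nuclei came from uninjured periosteum (2 libraries) and from periosteum collected with the hematoma 3 days (2 libraries), 5 days (1 library) and 7 days (1 library) after fracture. Each library pooled several mice, so no value belongs to 1 animal, and the p-values below measure the spread between these libraries only. The libraries held between 1499281 and 29796296 UMIs. Uninjured replicate 2 and both day 3 libraries were processed with Cell Ranger 7.1.0 and the other libraries with 6.0.0, so that day 3 and this version cannot be told apart from days 5 and 7; no time points were tested against each other. Between pairs of libraries 18 cell barcodes were shared, and 0 between osteoblast nuclei.

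Osteoblasts secrete the collagen-rich osteoid and then mineralize it. Runx2 commits mesenchymal cells to this fate and Sp7 (osterix) acts downstream of it. Alpl encodes tissue-nonspecific alkaline phosphatase, which frees phosphate for mineral. Ibsp, Ifitm5 and Bglap mark cells that already form or mineralize matrix, and osteoblasts that become embedded in that matrix turn into osteocytes. In a non-stabilized fracture, bone forms both directly from the periosteum and through a cartilage template.

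Day 3 replicates 1 and 2 held 7 and 16 selected nuclei, day 5 held 150 and day 7 held 28. Their share of the nuclei within the limits was 0.930% (exact 95% binomial interval 0.375 to 1.91) and 0.930% (0.533 to 1.51) at day 3, 6.19% (5.26 to 7.23) at day 5 and 2.07% (1.38 to 2.98) at day 7. In uninjured periosteum the same rule took 2 nuclei, or 0.311% (0.0376 to 1.12), and 33 nuclei, or 2.79% (1.93 to 3.90). With all UMIs, the day 5 interval lay above those of all other libraries, and the day 7 interval overlapped that of uninjured replicate 2. These intervals cover counting error only. The rule counts UMIs, so depth sets part of the share. With 1000 UMIs drawn from each nucleus and shallower nuclei left out, the shares were 0.273% and 0.530% at day 3, 3.16% at day 5, 1.80% at day 7, and 0% and 1.03% in the uninjured libraries. The thinned day 5 interval (2.45 to 4.01) overlapped that of day 7 (1.01 to 2.95). The order of the libraries by share changed: day 7 stood above uninjured replicate 2 after thinning, though its interval overlapped that of uninjured replicate 2 (0.494 to 1.88).

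**Figure D1:**
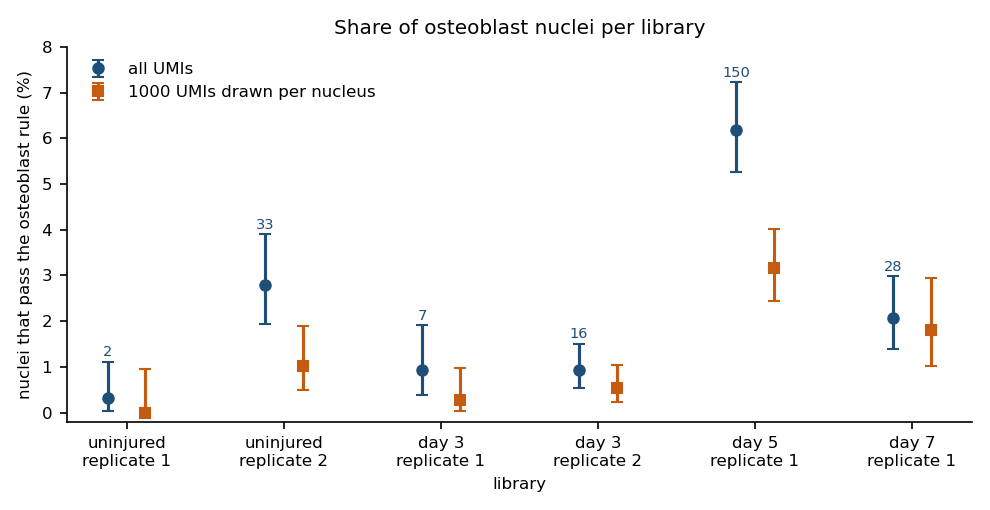
Share of nuclei within the limits that pass the osteoblast rule (y axis, percent) in each of the 6 libraries (x axis), with all UMIs (circles) and with 1000 UMIs drawn per nucleus (squares). Bars are exact 95% binomial intervals and the numbers are the selected nuclei. The day 5 library has the highest share on both scales, 6.19% and 3.16%.

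Nuclei selected on a leukocyte gene served as a rough measure of background. Whether such nuclei make RNA of the 5 osteoblast genes themselves was not tested. Among nuclei with at least 2 UMIs of Ptprc, the pan-leukocyte gene CD45, at least 2 UMIs of the 5 osteoblast genes were found in 0%, 1.35%, 1.79% and 8.82% in the day 3, day 3, day 5 and day 7 libraries, at median depths of 2079, 4539, 2496 and 1934 UMIs. The selected nuclei had median depths of 4674, 4164, 3254 and 2473 UMIs in the same order. Both the Runx2 and the osteoblast-gene criterion were met by 0%, 1.10%, 1.79% and 5.88% of these leukocyte nuclei. At day 3 replicate 2 and at day 7 this was above the share of selected nuclei among all nuclei within the limits. The day 7 value is 2 of 34 nuclei. At least 2 UMIs of Runx2 alone were found in 10.2%, 30.0%, 22.1% and 20.6% of the leukocyte nuclei, which had no cartilage limit. Of the selected nuclei, 7 of 16 at day 3 replicate 2 and 4 of 28 at day 7 had at least 5 UMIs of the 5 genes. The denominators differ, so these rates do not decide how many selected nuclei carry background RNA.

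Markers of other cell types are given as a description. Summed over its list, the osteoblast markers reached 3992 to 6944 CPM (counts-per-million: UMIs of a gene scaled to the UMI total of the selected nuclei in a library) across the 4 post-fracture libraries, as the rule requires. The 8 immune markers summed to 0 to 164 CPM and the 6 endothelial markers to 10.3 to 31.0 CPM. Each of these lists holds a gene that the rule sets to 0, Ptprc or Pecam1. Runx2-positive nuclei low in osteoblast genes, compared below, had sums of 23.8 to 135 and 15.4 to 46.0 CPM. These sums therefore do not single out the selected nuclei. The osteoclast genes Dcstamp, Ocstamp and Calcr, the smooth muscle gene Myh11, the Schwann gene Sox10 and the adipocyte genes Adipoq, Plin1 and Cidec were at 0. Other genes of these lists were detected, with list sums of 49.3 to 206 CPM for osteoclast, 12.3 to 103 CPM for pericyte and smooth muscle, 0 to 35.2 CPM for Schwann, 12.3 to 62.0 CPM for adipocyte and 31.0 to 327 CPM for tendon markers. The 8 myogenic markers summed to 534 to 3906 CPM, with 10 of the 201 nuclei holding at least 5 UMIs of 7 myofibre genes. Scrublet marked 1 selected nucleus as a doublet.

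Runx2, on chromosome 17 (GRCm38, 44495987 to 44814797, minus strand), was found at 5053 and 2507 CPM at day 3, 4152 CPM at day 5 and 2772 CPM at day 7. At day 3 replicate 1, 106 of its 163 UMIs came from 1 nucleus. Sp7 was at 527, 308, 235 and 172 CPM in the same order, Ibsp at 713, 1408, 708 and 308 CPM and Alpl at 651, 288, 452 and 739 CPM. Ibsp, the matrix protein bone sialoprotein, was lowest at day 7, where Alpl was highest. Bglap (osteocalcin), the classical gene of mature osteoblasts, was found in the day 5 library alone, at 35.2 CPM, or 25 UMIs in 10 nuclei. In the uninjured replicate 2 nuclei, Bglap had 26 UMIs in 11 of 33 nuclei, or 179 CPM.

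The promoters of 4 bone genes are shown, the 3 with a match among the genes looked up and Ibsp without one, because Runx2, the factor that selects the nuclei, binds the hexamer ACCACA. Each window runs from 250 bases before to 50 bases after a transcription start (RefSeq, GRCm38.p6), read 5′ to 3′ on the strand of the gene, with ACCACA and its reverse complement TGTGGT in capitals; no other motif was searched.
Runx2, chr17:44814578-44814877, minus strand: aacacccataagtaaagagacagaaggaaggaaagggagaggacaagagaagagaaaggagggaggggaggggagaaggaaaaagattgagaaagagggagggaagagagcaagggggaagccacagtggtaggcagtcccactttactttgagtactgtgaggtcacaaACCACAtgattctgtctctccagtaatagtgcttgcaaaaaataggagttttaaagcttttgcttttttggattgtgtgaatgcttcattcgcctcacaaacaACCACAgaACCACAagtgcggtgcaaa
Bglap, chr3:88384417-88384716, minus strand: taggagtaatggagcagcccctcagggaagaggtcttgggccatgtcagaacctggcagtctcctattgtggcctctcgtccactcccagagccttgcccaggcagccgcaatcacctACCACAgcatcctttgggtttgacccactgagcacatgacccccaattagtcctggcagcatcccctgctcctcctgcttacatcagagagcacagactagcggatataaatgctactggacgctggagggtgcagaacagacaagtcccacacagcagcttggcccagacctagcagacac
Spp1, chr5:104434861-104435160, plus strand: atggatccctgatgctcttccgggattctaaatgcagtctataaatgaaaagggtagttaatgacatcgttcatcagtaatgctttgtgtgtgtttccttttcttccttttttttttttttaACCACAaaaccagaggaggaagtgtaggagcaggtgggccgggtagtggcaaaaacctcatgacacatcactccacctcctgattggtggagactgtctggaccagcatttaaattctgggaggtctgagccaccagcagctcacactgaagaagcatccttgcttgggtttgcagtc
Ibsp, chr5:104299037-104299336, plus strand: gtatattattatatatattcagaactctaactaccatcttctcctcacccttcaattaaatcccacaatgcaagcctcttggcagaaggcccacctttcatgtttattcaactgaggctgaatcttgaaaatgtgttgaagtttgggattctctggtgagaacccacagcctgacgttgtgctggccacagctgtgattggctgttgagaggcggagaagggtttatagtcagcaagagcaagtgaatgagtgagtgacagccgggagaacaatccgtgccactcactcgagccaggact
The Runx2 window held 3 copies, of which the first starts 80 bases before the start and the others lie after it. The Bglap window held 1 copy 132 bases before the start, and this Spp1 window, 1 of 2 of the gene, held 1 copy 128 bases before it. The Ibsp window held none, nor did the second Spp1 window or any window of Alpl, Col13a1, Col11a2, Pth1r, Mef2c and Robo2. Of all 32851 windows, 5506 (16.8%) held either hexamer. Among the windows of genes higher in osteoblast nuclei in the first comparison below it was 8 of 95 (8.42%), and among those of all genes tested there 836 of 7424 (11.3%). These matches describe letters and do not show binding.

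The 201 nuclei were not alike in the genes that qualified them. Alpl was detected in 143 nuclei (71.1%), Ibsp in 105 (52.2%), Sp7 in 101 (50.2%), Ifitm5 in 14 and Bglap in 10. The most common pattern was Alpl alone in 47 nuclei, followed by Sp7, Ibsp and Alpl together in 31. At day 7, 15 of the 28 nuclei had Alpl alone. Ibsp made up 37.7%, 69.5%, 48.7% and 25.3% of the UMIs of the 5 genes in the day 3, day 3, day 5 and day 7 libraries. Many nuclei lay near the threshold: 66 had exactly 2 UMIs of the 5 genes and 17 exactly 2 of Runx2, while 71 had at least 5 of the 5 genes. Just outside, 129 nuclei met every other criterion with 1 UMI of the 5 genes, 10 with 1 UMI of Runx2, and 167 nuclei failed on cartilage genes alone.

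One nucleus of day 3 replicate 2 stood apart, with 16807 UMIs and 111 UMIs of the 5 osteoblast genes, 90 of them Ibsp. It held 129 of the 144 Mamdc2 UMIs of its library's osteoblast nuclei, 93 of 110 of Slc8a3 and 89 of 112 of Col24a1. Without it, Mamdc2 was at 186 CPM there in place of 1480 CPM. Each comparison was also run without this nucleus, an alternative chosen after the data were seen.

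Osteoblast nuclei were first compared with the nuclei nearest to them, 914 nuclei of the same 4 libraries that met every criterion but had fewer than 2 UMIs of the 5 osteoblast genes. This comparison asks what else differs between Runx2-positive nuclei with more and with fewer UMIs of the osteoblast genes. Of the 914 nuclei, 785 had 0 and 129 had 1 such UMI, which in a single nucleus does not show that the genes were off. UMIs were summed by library and class and tested with edgeR's quasi-likelihood test with library as a block, without the 13 genes of the rule. Of 7118 genes tested, 77 (1.08%) were higher and 31 (0.436%) lower in osteoblast nuclei, 1.52% in all, at a Benjamini-Hochberg adjusted p under 0.05. The count rested on the day 5 library, with 15 genes without it, and on the block, with 16 genes without library as a term. Without the single deep nucleus 83 genes were called.

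Among osteoblast transcription factors, 3 of 8 tested genes were higher and none lower, with a median log2 fold change of 0.59 against −0.04 over all genes. Mef2c, a MADS-box factor of osteoblasts and of hypertrophic chondrocytes, was at 527, 1099, 1566 and 1010 CPM in osteoblast nuclei against 157, 452, 343 and 645 CPM in the comparison nuclei of the day 3, day 3, day 5 and day 7 libraries. It was higher in all 4 libraries, by 1.47 ± 0.33 on the log2 scale (edgeR adjusted p = 0.026). Runx3, a relative of Runx2, was higher by 2.60 ± 0.55 (edgeR adjusted p = 0.023) at no more than 124 CPM. The Mef2c call was lost without day 5, and Runx3 passed in 1 of 4 fits with a library left out. Atf4 (0.21 ± 0.28) and Creb3l1 (0.94 ± 0.27), which serve the osteoblast's collagen production, did not pass.

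Bone matrix genes differed less by their most abundant collagen than by minor ones. Col1a1, the main bone collagen chain, was at 1209, 4162, 4341 and 1121 CPM against 1011, 1401, 1983 and 905 CPM, a log2 difference of 0.82 ± 0.28 that did not pass (edgeR adjusted p = 0.19). Col22a1, a collagen of tissue junctions, was at 62.0, 380.2, 406 and 86.2 CPM against 3.08, 16.3, 25.1 and 23.8 CPM, and was higher by 3.80 ± 0.37 (edgeR adjusted p = 7.4e-06). At day 3 replicate 2, 31 of its 37 UMIs came from the deep nucleus. Col13a1, a transmembrane collagen, was at 248, 247, 299 and 37.0 CPM against 12.3, 16.3, 9.79 and 21.8 CPM, and was higher by 3.89 ± 0.50 (edgeR adjusted p = 0.00043). Its groups did not overlap. Col11a2, a fibril-forming collagen of cartilage and bone, was higher by 3.09 ± 0.53, and Spp1 (osteopontin), a mineral-binding matrix protein, by 2.08 ± 0.37. At day 3 replicate 2 the deep nucleus held 16 of the 24 Col13a1 UMIs and 9 of the 12 Col11a2 UMIs. In all 4 of the 11 tested matrix genes rose, none fell, and the median was 1.61.

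Of 9 tested genes that act in mineralization, 2 were higher and none lower. Smpd3, a sphingomyelinase needed for normal bone mineralization, was at 62.0, 92.5, 880.2 and 246 CPM in osteoblast nuclei against 0, 0.81, 27.7 and 25.8 CPM, and was higher by 4.72 ± 0.59 (edgeR adjusted p = 0.0014). It was found in 75 of the 201 nuclei, 66 of them at day 5. At day 3 replicate 2, 8 of the 9 Smpd3 UMIs came from the deep nucleus, and without that nucleus Smpd3 was at 12.4 CPM there. Panx3, a channel of osteoblasts and hypertrophic chondrocytes, was at 0, 41.1, 87.3 and 73.9 CPM against 0, 0.81, 1.28 and 3.97 CPM, and was higher by 5.38 ± 0.51 (edgeR adjusted p = 7.4e-06). Both were also at high levels in chondrocyte nuclei, Smpd3 at 14.6, 194 and 428 CPM and Panx3 at 87.6, 105 and 189 CPM in the 3 libraries that had such nuclei. That class, described below, includes nuclei that met both the Runx2 and the osteoblast-gene criterion. The other 7 tested genes of this list did not pass, with a list median of 3.51. Phex, the endopeptidase of phosphate balance, was at 0, 71.9, 418 and 0 CPM (3.51 ± 1.16, adjusted p = 0.28). Slc8a3, a sodium-calcium exchanger, was at 589, 1130, 1086 and 320.3 CPM (4.01 ± 1.01, adjusted p = 0.12). The osteocyte list, which includes Phex, had 0 of 6 tested genes called in either direction; Dmp1 was untested, with 62 UMIs at day 5 in 16 nuclei and 15 UMIs at day 3 replicate 2, all from 1 nucleus.

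**Figure D2:**
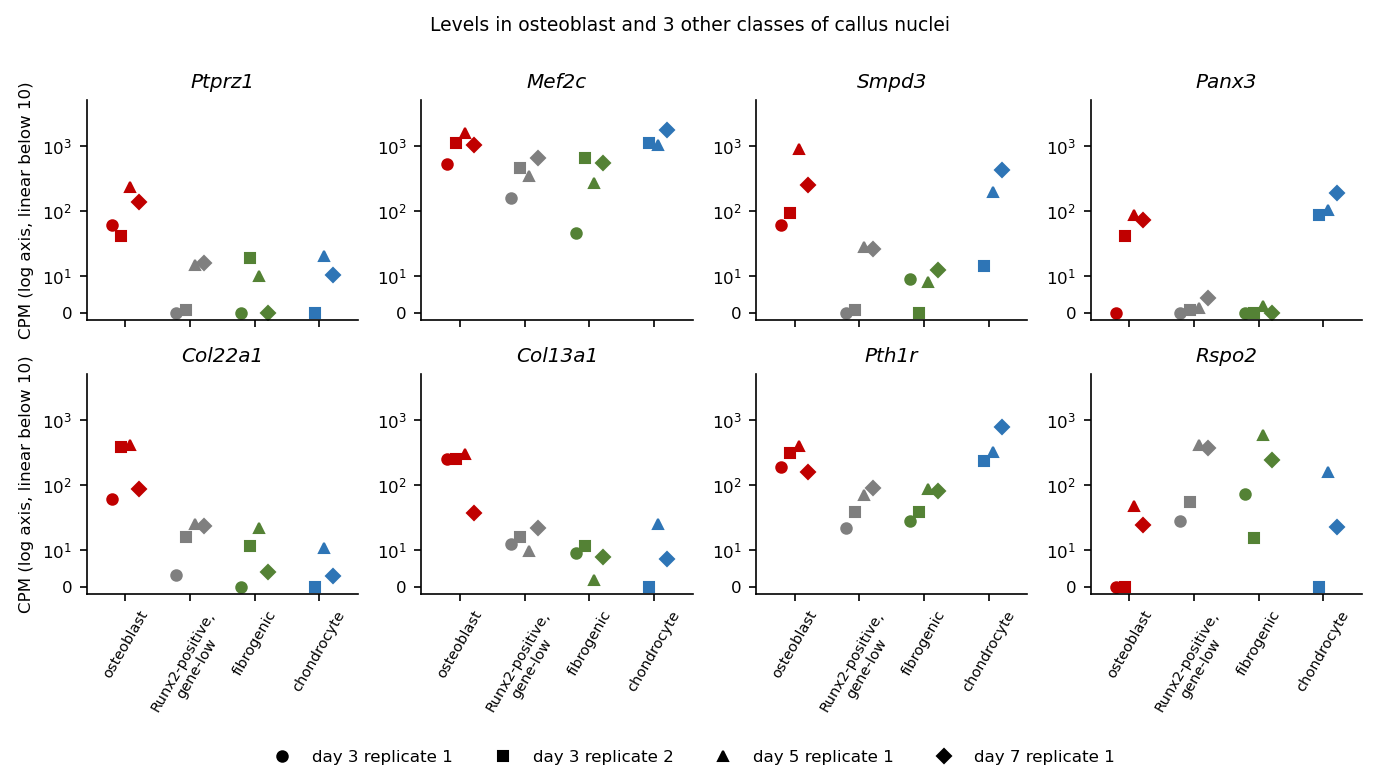
Levels in CPM (y axis, logarithmic above 10 and linear below) of 8 genes in osteoblast nuclei and in Runx2-positive nuclei low in osteoblast genes, fibrogenic nuclei and chondrocyte nuclei (x axis); each symbol is 1 library, and day 3 replicate 1 had no chondrocyte nuclei. Ptprz1, Col22a1 and Col13a1 are highest in osteoblast nuclei, Smpd3, Panx3 and Pth1r are high in chondrocyte nuclei as well, and Rspo2 is low in osteoblast nuclei.

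Receptors and ligands of the bone signalling pathways gave single genes rather than lists. Pth1r, the receptor of parathyroid hormone, was at 186, 308, 393 and 160.2 CPM against 21.6, 38.2, 71.1 and 89.3 CPM, and was higher by 2.37 ± 0.36 (edgeR adjusted p = 0.002). Its groups did not overlap, and it was found in 121 of the 201 nuclei. Ptch1, the Hedgehog receptor and itself a target of that pathway, was at 31.0, 71.9, 755 and 1133 CPM against 37.0, 65.0, 159 and 262 CPM, so that the excess of 1.73 ± 0.36 (edgeR adjusted p = 0.017) came from days 5 and 7. Fgfr3 was higher by 2.16 ± 0.51, at no more than 30.8 CPM. These were 3 of 17 tested genes of the FGF, IGF, PTH and Hedgehog list.

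Of 20 tested Wnt pathway genes, Frzb (secreted frizzled-related protein 3, a Wnt antagonist) rose by 4.01 ± 0.79 (edgeR adjusted p = 0.026) and Rspo2 (R-spondin 2, a secreted enhancer of Wnt signalling) fell. Rspo2 was at 0, 0, 47.9 and 24.6 CPM in osteoblast nuclei against 27.7, 54.5, 411 and 363 CPM, a log2 fold change of −3.70 ± 0.57 (edgeR adjusted p = 0.0028). It was found in 13 of the 201 nuclei. Frzb was at 0, 103, 60.6 and 12.3 CPM against 0, 0.81, 2.98 and 13.9 CPM, higher in 2 libraries and lower at day 7. Its 10 UMIs at day 3 replicate 2 all came from 1 nucleus, and its call was lost without day 5. Of 21 tested BMP and TGF-β genes, Bmp8a rose by 3.28 ± 0.52 (edgeR adjusted p = 0.0014) and the co-receptor Tgfbr3 fell by 1.14 on the log2 scale (SE 0.22, edgeR adjusted p = 0.0074). Tgfbr3 was at 217, 308, 286 and 197 CPM against 696, 769, 464 and 403 CPM, without overlap. None of 8 tested Notch genes was called (median −0.29), nor any of 6 stem and progenitor genes (−0.36) or 9 cell cycle genes (−0.85).

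Osteoblasts also signal to osteoclasts, vessels and nerves. In the coupling list of 11 tested genes, which holds Spp1, the repulsive cue Sema3a was lower, at 31.0, 30.8, 66.2 and 12.3 CPM against 74.0, 109, 152 and 95.3 CPM (−1.64 ± 0.36, edgeR adjusted p = 0.019). Robo2, a receptor of Slit guidance proteins, rose by 3.16 ± 0.58, as 1 of 21 tested adhesion and guidance genes. It was at 62.0, 1099, 1293 and 148 CPM, and 74 of its 107 UMIs at day 3 replicate 2 came from the deep nucleus. Of 14 fibrogenic genes, Col8a1 fell by 1.83 on the log2 scale (SE 0.32, edgeR adjusted p = 0.0036). Fgfr3 and the calcium channel Trpv4 (2.02 ± 0.51) were the 2 of 11 tested cartilage genes that were higher; with 1 library left out, Fgfr3 passed in 1 of 4 fits and Trpv4 in 0 of 4. The 5 cartilage genes of the rule were higher in osteoblast nuclei in each library as well, with sums of 124, 61.7, 222 and 468 CPM against 21.6, 17.1, 185 and 343 CPM, and the part of cartilage RNA in these results was not tested. Of the 3 tested genes of the study's osteogenic regulon core, a list chosen on these samples, Tbx2 was higher (2.43 ± 0.60, edgeR adjusted p = 0.039).

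Outside the lists, the largest changes by the naming rule included Ptprz1 (3.96 ± 0.54), a receptor phosphatase, Rerg (3.70 ± 0.47), a Ras-like GTPase, and Ano1 (3.50 ± 0.59), a calcium-activated chloride channel, which were all higher. Ptprz1 was at 62.0, 41.1, 232 and 136 CPM against 0, 0.81, 14.9 and 15.9 CPM. At day 3 replicate 2 the deep nucleus held 17 of the 24 Rerg UMIs and 17 of the 18 Ano1 UMIs. Those lower were Ddah1 (−1.88 ± 0.35), the laminin chain gene Lama2 (−1.80 ± 0.31), the microfibril gene Mfap5 (−1.74 ± 0.40), Arsj (−1.68 ± 0.39) and Medag (−1.64 ± 0.36). Lama2 was at 62.0, 318, 403 and 123 CPM against 555, 970.5, 818 and 548 CPM, without overlap. Of the genes named in this comparison, Smpd3, Panx3, Col22a1, Col13a1, Rspo2, Col8a1 and Lama2 passed with any 1 library left out, and the others lost their call in at least 1 such fit, most often without day 5. Col11a2, Sema3a and Arsj passed in 1 of 4 fits.

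Osteoblast nuclei were next set against 439 fibrogenic nuclei of the same libraries. These had under 2 UMIs of Runx2, under 2 of the 5 osteoblast genes, no Rgs5 or Myh11, and at least 5 UMIs of Postn, Aspn, Col3a1, Col5a1 and Col8a1, which were not tested here. The study places a fibrogenic stage before the osteoblast. Of 7113 genes, 70 (0.984%) were higher and 32 (0.45%) lower in osteoblast nuclei, 1.43% in all. The count fell to 1 without day 5 and to 7 without library as a term, and was 156 without day 3 replicate 2. This comparison and the next share the osteoblast sums with the first, so their calls are not independent of it.

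Panx3 was higher by 6.07 ± 0.72 (edgeR adjusted p = 0.00026), with 0 UMIs in both classes at day 3 replicate 1. Among genes higher in all 4 libraries that met the naming rule, the largest difference was Smpd3, at 9.25, 0, 8.43 and 12.4 CPM in fibrogenic nuclei (5.90 ± 0.77, edgeR adjusted p = 0.0021). Col13a1 followed with 5.07 ± 0.66, then Rerg with 4.66 ± 0.58, Ano1 with 4.58 ± 0.77 and Col22a1 with 4.43 ± 0.44. Robo2 (4.25 ± 0.67), Bmp8a (4.16 ± 0.69) and Ptprz1 (3.94 ± 0.66) were also higher. Among 11 matrix genes 4 rose (median 1.40 against −0.05 over all genes), with Col24a1 (2.26 ± 0.48) in place of Spp1, which did not pass (1.40 ± 0.40, adjusted p = 0.097). Tnfrsf11b (osteoprotegerin), the decoy receptor that restrains osteoclasts, was higher by 4.83 ± 0.98 (edgeR adjusted p = 0.011), from 2 UMIs at day 3 and 34 at day 5. The matricellular gene Tnc was higher by 1.38 ± 0.33, though at day 3 replicate 1, 97 of its 117 UMIs came from 1 nucleus. The adhesion gene Cdh2 (N-cadherin) rose by 1.43 ± 0.29.

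Of 9 tested fibrogenic genes, none was lower and Tnc was higher (median 0.15). The single genes that were lower follow. Rspo2 fell by 3.55 on the log2 scale (SE 0.57). Efemp1 (fibulin-3) was at 0, 0, 5.63 and 0 CPM against 102, 42.5, 33.7 and 74.2 CPM (−3.33 ± 0.74, edgeR adjusted p = 0.019). Thbs4, a tendon matrix protein, was at 0, 30.8, 59.1 and 98.6 CPM against 703, 417, 389 and 136 CPM (−2.88 ± 0.51, edgeR adjusted p = 0.011). The other genes of this rank were Dpt (dermatopontin, −2.79 ± 0.54), the elastin gene Eln (−2.51 ± 0.61), Gsap (−3.17 ± 0.68), the growth factor antagonist Lrig1 (−2.19 ± 0.47) and the heme oxygenase gene Hmox1 (−2.78 ± 0.62). Hmox1 was at 295 to 1199 CPM and Gsap at 186 to 326 CPM in the Ptprc-positive nuclei of these libraries, and the 8 immune markers summed to 8.24 to 278 CPM in fibrogenic and 0 to 164 CPM in osteoblast nuclei. The part of immune RNA in the Hmox1 and Gsap differences was not tested. Hmox1 lost its call with any 1 library left out and Efemp1 in 3 of 4 such fits. Without day 5, Col22a1 alone of the genes named in this comparison passed, and Tnfrsf11b was not tested there.

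Osteoblast nuclei were lastly compared with 510 chondrocyte nuclei, which held at least 5 UMIs of the 5 cartilage genes and were absent from day 3 replicate 1. This class had no limit on Runx2 or the 5 osteoblast genes, and 167 of the 510 nuclei met both of those criteria. Its 6 osteoblast markers summed to 2760 to 3681 CPM, against 3992 to 6944 CPM in osteoblast nuclei. Of 7118 genes, 105 (1.48%) were higher and 123 (1.73%) lower in osteoblast nuclei, 3.2% in all. The count was 45 without day 5, 70 without day 7, 367 without day 3 replicate 2 (6 chondrocyte nuclei), 18 when only these 2 classes entered the fit, and 12 without library as a term.

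The bone-forming side was led by Col22a1, at 0, 10.7 and 3.02 CPM in the chondrocyte nuclei of day 3 replicate 2, day 5 and day 7 (5.33 ± 0.47, edgeR adjusted p = 1.5e-06). Robo2 (4.34 ± 0.68), Rerg (4.00 ± 0.53), Ano1 (3.85 ± 0.72), Ptprz1 (3.51 ± 0.57), Col13a1 (3.48 ± 0.55) and Fam78b (3.16 ± 0.54) followed. Slit3, a secreted guidance factor, was at 899, 1675, 1480 and 912 CPM in osteoblast against 146, 273 and 192 CPM in chondrocyte nuclei (2.41 ± 0.34, edgeR adjusted p = 0.0003). It did not pass against Runx2-positive nuclei low in osteoblast genes (−0.01 ± 0.28) or fibrogenic nuclei (0.13 ± 0.28), so it was low in chondrocyte nuclei rather than particular to osteoblast nuclei. Fam78b did not pass against these classes either (1.2 ± 0.41 and 0.91 ± 0.43). None of the 9 tested mineralization genes was called (median 0.70 against −0.02 over all genes). Smpd3 differed by 1.03 ± 0.55 and Panx3 by −0.72 ± 0.36. Pth1r (−0.46 ± 0.37) and Mef2c (0.04 ± 0.35) did not pass either. The part of the chondrocyte nuclei that met both osteoblast criteria in these values was not tested.

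On the cartilage side, 8 of 11 tested cartilage genes outside the rule were lower in osteoblast nuclei and none higher (median −2.30). Col10a1, the collagen of hypertrophic cartilage, had 0 UMIs in the 201 nuclei against 213 UMIs in chondrocyte nuclei, which with 3 counts as the limit over the osteoblast nuclei is at least 25.2-fold lower. Matn3 (−5.04 ± 0.53), Comp (−2.67 ± 0.34) and Col27a1 (−2.56 ± 0.31), all of cartilage matrix, fell, as did Sox5 (−2.05 ± 0.27) and Sox9 (−1.46 ± 0.33), which drive chondrocyte fate. Sox9 was still at 62.0, 92.5, 66.2 and 61.6 CPM in osteoblast nuclei. Kcna6 (−5.20 ± 0.70), Clec3a (−4.57 ± 0.88), Cobll1 (−3.60 ± 0.38) and Nim1k (−3.58 ± 0.50) complete the largest differences. The mitotic genes Cenpe (−3.15 ± 0.52), Cenpf (−2.59 ± 0.51) and Kif11 (−2.02 ± 0.43) were lower, as 3 of 9 tested cell cycle genes. With any 1 library left out, Col22a1, Col13a1, Slit3, Kcna6, Matn3, Cobll1, Nim1k, Cenpe, Sox5, Comp and Col27a1 passed, and the other genes called here lost their call without day 5, Clec3a and Sox9 also without day 7.

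**Figure D3:**
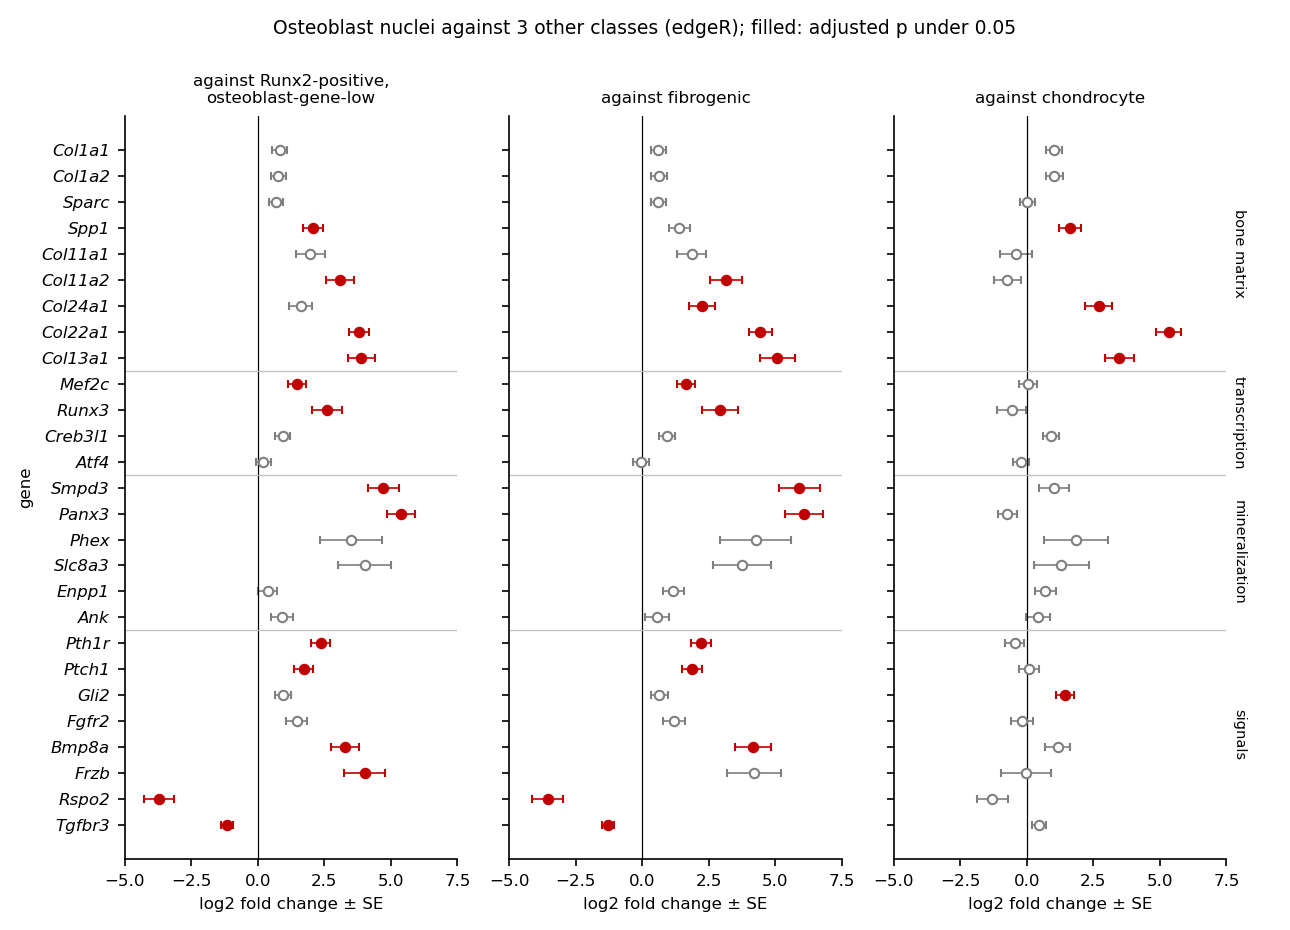
Log2 fold change of osteoblast nuclei against 3 other classes of callus nuclei (x axis, with SE bars) for 27 genes (y axis) in 4 groups; filled red points passed an edgeR adjusted p of 0.05. Col22a1 and Col13a1 passed against all 3 classes, whereas Smpd3, Panx3 and Pth1r passed against 2 and not against chondrocytes.

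The osteoblast nuclei were then divided among themselves. Those with a UMI of Ibsp, Ifitm5 or Bglap (115 nuclei; 5, 8, 96 and 6 by library) were compared with those selected on Sp7 or Alpl only (86 nuclei; 2, 8, 54 and 22). Their median depths were 3002 and 3584 UMIs. Of 1003 genes tested, 11 (1.1%) were higher and 2 (0.199%) lower in the Ibsp group, 1.3% in all. The count was 6 without the deep nucleus of day 3 replicate 2, 1 without day 5 and 24 without day 3 replicate 1.

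Mamdc2, which encodes a MAM-domain protein, was at 282, 3212, 1724 and 325 CPM in the Ibsp group against 0, 0, 146 and 15.9 CPM (4.77 ± 0.74, edgeR adjusted p = 1.1e-06). It was higher in all 4 libraries and passed with any 1 library left out. At day 3 replicate 1 the group without such a UMI held 2 nuclei with 3906 UMIs, so a 0 there says little. At day 3 replicate 2, 129 of the 144 Mamdc2 UMIs came from the deep nucleus. Without that nucleus, 5 of the 13 main calls of this comparison remained. Slc8a3 was at 670.1, 2342, 1787 and 487 CPM against 0, 95.3, 172 and 271 CPM (3.10 ± 0.64, edgeR adjusted p = 0.0013). Mical3 (2.28 ± 0.51), Pdzd2 (2.27 ± 0.57), Zfp385b (2.26 ± 0.53), Mlip (2.01 ± 0.49), Mgat5 (1.75 ± 0.46) and Col24a1 (2.27 ± 0.63) were higher too. With 1 library left out, Pdzd2, Mgat5 and Col24a1 passed in 0 of 3 fits that tested them and Zfp385b and Mlip in 1 of 4, and Slc8a3 lost its call without day 5. The growth factor gene Igf1 fell by 2.72 on the log2 scale (SE 0.59, edgeR adjusted p = 0.0025). It was at 0, 0, 241 and 217 CPM in the Ibsp group against 0, 324, 1369 and 1021 CPM. Abi3bp, an extracellular matrix binding protein, fell by 2.56 (SE 0.61, edgeR adjusted p = 0.0068), and passed in 1 of 4 fits with a library left out. Igf1 lost its call without day 3 replicate 2. Col1a1 (0.94 ± 0.67) and Pth1r (1.36 ± 0.47) did not pass.

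**Figure D4:**
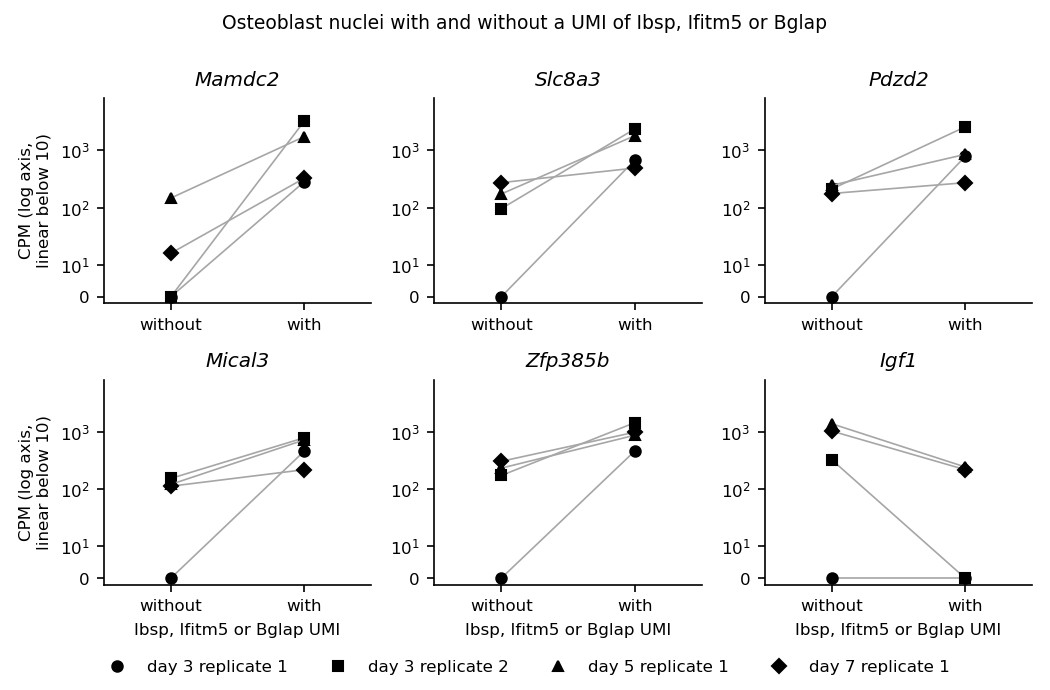
Levels in CPM (y axis, logarithmic above 10 and linear below) of 6 genes in osteoblast nuclei without and with a UMI of Ibsp, Ifitm5 or Bglap (x axis); lines join the 2 values of a library. Mamdc2, Slc8a3, Pdzd2, Mical3 and Zfp385b are higher with such a UMI in all 4 libraries, and Igf1 is lower in 3 libraries and at 0 in both values of day 3 replicate 1. The group without such a UMI holds 2 nuclei at day 3 replicate 1. At day 3 replicate 2, more of the UMIs of each of the 5 higher genes came from 1 deep nucleus than from all other osteoblast nuclei.

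Callus osteoblast nuclei were finally compared with the uninjured nuclei that passed the same rule, with libraries as replicates (4 against 2). Uninjured replicate 1 had 2 such nuclei with 3148 UMIs in sum, so this comparison rested on uninjured replicate 2, with 33 nuclei. Of 2551 genes, 3 (0.118%) were higher and 8 (0.314%) lower in the callus, 0.431% in all, and 242 had an unadjusted p under 0.05 in the same edgeR test. Without uninjured replicate 2 the count was 1, without uninjured replicate 1 it was 22, and the values without each of the other libraries ran from 17 to 63. With the Cell Ranger version as a term, 21 genes were called.

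Csgalnact1, which starts chondroitin sulfate chains, was at 124, 637, 632 and 862 CPM in the callus libraries of day 3, day 3, day 5 and day 7 against 0 and 6.89 CPM in the uninjured libraries (6.29 ± 1.31, edgeR adjusted p = 0.011). Ctnnd1, which encodes the cadherin-binding p120 catenin, was at 341, 51.4, 316 and 308 CPM against 0 and 6.89 CPM. Dysf (dysferlin), a membrane repair protein best known in muscle, was at 155, 195, 107 and 86.2 CPM against 0 UMIs in both uninjured libraries, or at least 5.7-fold higher with 3 counts as the limit over the uninjured nuclei. The groups did not overlap for these 3 genes, as the naming rule required. None of the 3 passed between osteoblast nuclei and another callus class. Against Runx2-positive nuclei low in osteoblast genes, fibrogenic and chondrocyte nuclei, Csgalnact1 differed by −1.36 ± 0.43, −1.24 ± 0.43 and −1.05 ± 0.45. Ctnnd1 differed by 0.16 ± 0.21, 0.45 ± 0.22 and 0.18 ± 0.23. Dysf differed by −0.13 ± 0.34, 0.33 ± 0.36 and −0.01 ± 0.43. Whether the differences from uninjured periosteum are particular to osteoblast nuclei was not tested. The 8 myogenic markers summed to 534 to 3906 CPM in the callus libraries and to 637 and 3589 CPM in the uninjured ones.

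Among genes lower in the callus, Nlgn1 (neuroligin 1), an adhesion gene known from synapses, was at 62.0, 20.6, 73.2 and 37.0 CPM against 319 and 1887 CPM (−4.58 ± 0.72, edgeR adjusted p = 0.00017). Fmo1, a flavin monooxygenase, was at 31.0, 0, 16.9 and 12.3 CPM against 319 and 379 CPM (−4.52 ± 0.73, edgeR adjusted p = 0.00017). Pik3r1, the regulatory subunit of PI3 kinase, was at 93.0, 103, 184 and 86.2 CPM against 1274 and 1068 CPM (−2.85 ± 0.61, edgeR adjusted p = 0.011). The remaining ones were Txnip (−3.56 ± 0.86), the transporter gene Abca8a (−3.24 ± 0.66), Tenm4 (−2.98 ± 0.67), Lrp1b (−2.77 ± 0.59) and the mineralocorticoid receptor gene Nr3c2 (−2.41 ± 0.58). All 11 genes lost their call without uninjured replicate 2. Without uninjured replicate 1, Dysf, Csgalnact1, Ctnnd1, Txnip, Abca8a, Tenm4 and Nr3c2 lost theirs.

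The bone lists were not called against uninjured nuclei. None of 10 tested matrix genes passed (median 1.57 against 0.20 over all genes), with Col1a1 at 0 and 1212 CPM in the uninjured libraries (1.84 ± 1.17, adjusted p = 0.7). None of 7 transcription factors, 6 mineralization genes or 13 fibrogenic genes passed either. Smpd3 was at 0 and 20.7 CPM in the uninjured nuclei (4.09 ± 1.34, adjusted p = 0.22).

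**Figure D5:**
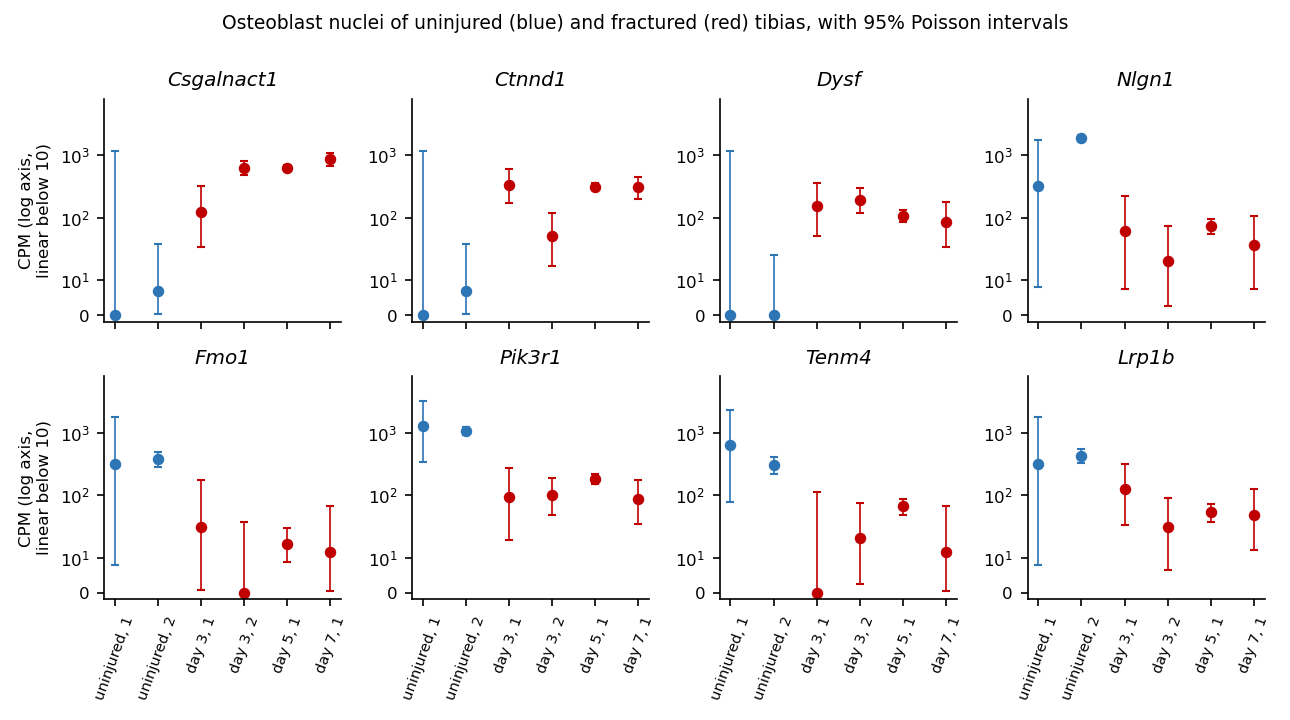
Levels in CPM (y axis, logarithmic above 10 and linear below) of 8 of the 11 called genes in osteoblast nuclei of the 2 uninjured libraries (blue) and the 4 callus libraries (red), with exact 95% Poisson intervals for counting error. The interval of uninjured replicate 1 spans most of the axis because it rests on 2 nuclei; Csgalnact1 is at 0 and 6.89 CPM in the uninjured libraries and between 124 and 862 CPM in the callus.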

How the data were processed

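The authors deposited unnormalized UMI counts for every gene in every nucleus barcode of 6 libraries, made per the labels' processing notes with Cell Ranger 6.0.0 or 7.1.0 on mm10, with intronic and exonic reads counted. Library chemistry was 10x Genomics 3′ v3.1 on sorted nuclei. One label protocol names a human reference, but the gene identifiers are mouse. The 30406 genes that all 6 gene tables share were kept.

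Nuclei were classed by the rule given with the results. UMI counts were summed per library and class, and tested with edgeR 4.0.16 in R 4.3.3 (filterByExpr, TMM, robust glmQLFit, glmQLFTest), with library as a block in the comparisons between classes, and Benjamini-Hochberg adjustment over all genes tested. The 4 classes shared 1 fit. The 13 genes of the rule, and the 5 fibrogenic genes against fibrogenic nuclei, were not tested. The procedure was tested on simulated counts. CPM values use the UMIs of the class over the shared genes, and SE is the log2 fold change divided by the square root of F. Binomial intervals are Clopper-Pearson. Doublets were called per library with Scrublet in scanpy 1.11.5 (expected rate 6%, 48 marked, or 0.595% of 8073 nuclei) and kept.

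Members and gene lists were chosen with earlier results of these data known. Genes were named from these lists, and, per test and direction, as the 8 called genes of largest fold change whose mean level in the higher class was 50 CPM or more and whose sign was shared by every library (no overlap in the fracture test); a gene model and some other genes that met the rule are not reported here. Enpp6, Specc1, Ptpn4, Tnfrsf19 and Abi3bp were picked after their values were seen. Promoter windows came from RefSeq and were found for 57 of the 77 genes higher in the first comparison. Gene coordinates are from GENCODE vM21. Alternatives were DESeq2 1.42.0, RLE scaling, no low-count filter, only the classes compared, no block, stricter membership (at least 3 UMIs), doublets or myofibre RNA removed, other limits on nuclei, and each library left out. Added after the data were seen were leaving out the deepest nucleus, and thinning to 500 UMIs before summing.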

Additional observations from a re-analysis of the deposited data

Results flagged for a closer look

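Reporter transcripts were counted outside the comparisons above. In uninjured replicate 1, tdTomato had 14 UMIs in 12 barcodes and EGFP had 29 UMIs in 24 barcodes, although the label gives the genotype only as C57BL6. Both had 0 UMIs in uninjured replicate 2 and in day 3 replicate 2, where they were listed, and dsRed had 0 UMIs at day 5. They were noted because a signal appeared in a feature that no comparison used. Their source was not tested.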

How the results depend on the processing

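Values were recomputed under the alternatives for genes named by the rule and called list genes only, plus Abi3bp, Specc1 and Ptpn4 for the Ibsp group. Of these 1719 values, 1357 kept direction and call and 361 kept the direction without the call. The remaining 1, a share difference (Tnfrsf11b against fibrogenic nuclei, thinned), was 0, and none reversed. The naming rule required the same sign in every library, so for its genes the lack of reversals with a library left out was largely set beforehand. Counts of called genes moved more. Against Runx2-positive nuclei low in osteoblast genes (108), no low-count filter gave 309, no library block 16, no upper limit on genes 38, and leaving out 1 library 15 to 144. Against chondrocyte nuclei (228) the same gave 512, 12, 98 and 45 to 367, fitting only these classes 18 and thinning before summing 135. Against fibrogenic nuclei (102) they gave 302, 7, 52 and 1 to 156, DESeq2 154 and stricter membership 170. For fractured against uninjured (11), DESeq2 gave 4, no filter 62, the Cell Ranger version as a term 21, stricter membership 20 and leaving out 1 library 1 to 63. For the Ibsp group (13), DESeq2 gave 27, no filter 20, a split at 2 UMIs 8, doublets removed 23, the deepest nucleus removed 6 and leaving out 1 library 1 to 24. The other settings stayed within 1.5 times the counts given. Causes were not tested.

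Shares fell when nuclei were thinned to 500 UMIs, to 0%, 0.256%, 0.133%, 0.233%, 1.86% and 0.372% (uninjured, day 3, day 5, day 7), and to 1000 UMIs, to 0%, 1.03%, 0.273%, 0.530% and 3.16% in the first 5. Stricter membership gave 0.531% and 0.581% at day 3, 1.69% in uninjured replicate 2, 4.25% at day 5 and 0.740% at day 7, and a 5% mitochondrial limit with no ribosomal limit gave 0.842% at day 7. Without nuclei holding myofibre RNA, day 3 replicate 1 was at 1.73%. Classes of 1 library were paired by the library block. Between libraries of different groups, no paired analysis was possible because the labels give no replicate numbers. Days 5 and 7 have 1 library each, and day 3 holds 23 osteoblast nuclei, which limits every day 3 value.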

Other observations

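Genes outside the naming rule that were picked after their values were seen are given here as values. Enpp6, a choline phosphodiesterase, was at 31.0, 30.8, 38.0 and 0 CPM in osteoblast nuclei of the day 3, day 3, day 5 and day 7 libraries against 0, 1.63, 2.55 and 0 CPM in Runx2-positive nuclei low in osteoblast genes (3.97 ± 0.84, edgeR adjusted p = 0.018), and at 0 in the fibrogenic nuclei of all 4 libraries. Tnfrsf19, a receptor of the TNF family, was at 62.0, 10.3, 90.1 and 61.6 CPM against 3.08, 4.88, 5.53 and 19.9 CPM (3.15 ± 0.61, edgeR adjusted p = 0.0074).

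Specc1 was at 403, 390.5, 354 and 197 CPM in osteoblast nuclei against 55.5, 82.1, 132 and 121 CPM in Runx2-positive nuclei low in osteoblast genes (1.69 ± 0.26, edgeR adjusted p = 0.001), and at 338, 484, 672 and 682 CPM in Ptprc-positive nuclei. Ptpn4, a protein tyrosine phosphatase, was at 248, 298, 362 and 172 CPM against 105, 93.5, 106 and 119 CPM (1.36 ± 0.24, edgeR adjusted p = 0.0034). At day 3 replicate 2 the deep nucleus held 29 of the 38 Specc1 UMIs and 19 of the 29 Ptpn4 UMIs of the osteoblast nuclei. Without that nucleus they were at 112 and 124 CPM there.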
